A study of Mus musculus with 20 samples.

Results

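The genes described here encode the proteasome, and were taken as every symbol in the count tables that begins with Psma, Psmb, Psmc, Psmd, Psme, Psmf or Psmg followed by a number, without the immunoproteasome genes Psmb8 and Psmb9. That rule gave 45 of the 13319 symbols counted, and all 45 had enough counts to be tested. They comprise 7 alpha and 7 beta subunits of the 20S core, the inducible beta subunit Psmb10, the 6 ATPases and 11 non-ATPase subunits of the 19S regulatory particle, 3 assembly chaperones of that particle, 4 assembly chaperones of the core, 4 activators and the inhibitor Psmf1. One more symbol, Psmc3ip, meets the rule by its spelling only, since it encodes a meiotic recombination factor and not a proteasome protein. It is kept in the counts and pointed out where it matters.

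Livers were taken from 20 individual male mice that ate a western diet and were treated daily for 16 days, 4 for each of 5 treatments. These were control mice, mice given glucagon (the fasting hormone of the pancreas, which raises hepatic glucose output), mice given T3 (triiodothyronine, the active thyroid hormone), mice given both hormones (the combination) and mice given a molecule that joins glucagon to T3 (the hybrid). The hybrid libraries carry the code Cp and were assigned to it by elimination. Doses, strain, age and any vehicle are not given in sources used here, so treatments were compared at unknown relative doses. All 4 T3 libraries were sequenced in lane 5, while replicates 1 to 4 of each other group were sequenced in lanes 1 to 4, so lane and T3 treatment cannot be told apart.

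The proteasome is the cell's main machine for breaking down proteins marked with ubiquitin. Its core is a barrel of stacked alpha and beta rings, with the proteolytic sites inside on Psmb5, Psmb6 and Psmb7, and a regulatory particle at the end of the barrel binds the marked protein, removes the ubiquitin and unfolds the chain by means of its ATPases. Cells that run short of proteasome activity raise many subunit genes together through the transcription factor Nfe2l1. In liver, protein breakdown supplies amino acids for gluconeogenesis during fasting, and interferons replace some core subunits with inducible ones.

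Library totals ran from 6091917 to 23195658 counts, and levels below are normalised CPM, reads scaled to library depth and adjusted by the trimmed mean of M-values. The proteasome genes held 0.200% to 0.277% of all counts in control livers, 0.192% to 0.230% with glucagon, 0.212% to 0.286% with T3, 0.200% to 0.244% with the combination and 0.248% to 0.279% with the hybrid. These shares overlap among control, T3, combination and glucagon livers. The hybrid range overlaps those of control and T3 and lies above those of glucagon and the combination. These are shares of raw counts. In normalised CPM the 45 genes summed to 2195 to 2409 with the hybrid, 2254 to 2742 with glucagon and 2109 to 2242 with the combination, and these ranges overlap. Hepatocyte markers, 9 of 10 measured, summed to between 9.56e4 and 2.64e5 CPM across the 20 libraries, so the markers of the labelled tissue were abundant in each. They were not even across groups. The hybrid range, 9.56e4 to 1.344e5 CPM, lay below those of control (1.475e5 to 2.637e5) and glucagon (1.803e5 to 2.414e5). It overlapped those of T3 (1.061e5 to 1.54e5) and the combination (1.122e5 to 1.783e5). Skeletal muscle markers summed to 2206 CPM in glucagon 3, 664 CPM in control 2, 446 CPM in hybrid 4 and 221 CPM in combination 4, and to at most 44.4 CPM elsewhere. A set of 20 interferon response genes summed to 3432 CPM in control 2 against 468 to 705 CPM in the other controls.

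One control library stood apart in a way that touches most comparisons below. Across 10345 genes, control 1 minus the median of controls 2 to 4 had a Spearman correlation of -0.646 with the GC content of the longest coding transcript. This difference was taken in log2 CPM scaled to library depth only. Over the 43 proteasome genes with enough counts for that comparison the correlation was -0.559, as a description with no test. Psmc6, an ATPase subunit gene whose transcript has 37.0% GC, had 122.8 CPM in control 1 and 54.2, 24.9 and 46.5 CPM in controls 2, 3 and 4. Psmb2, a core subunit gene, went the other way with 26.7 CPM in control 1 and 76.7, 90.3 and 83.7 CPM in the others. Calls against control are therefore given with and without control 1.

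**Figure D1:**
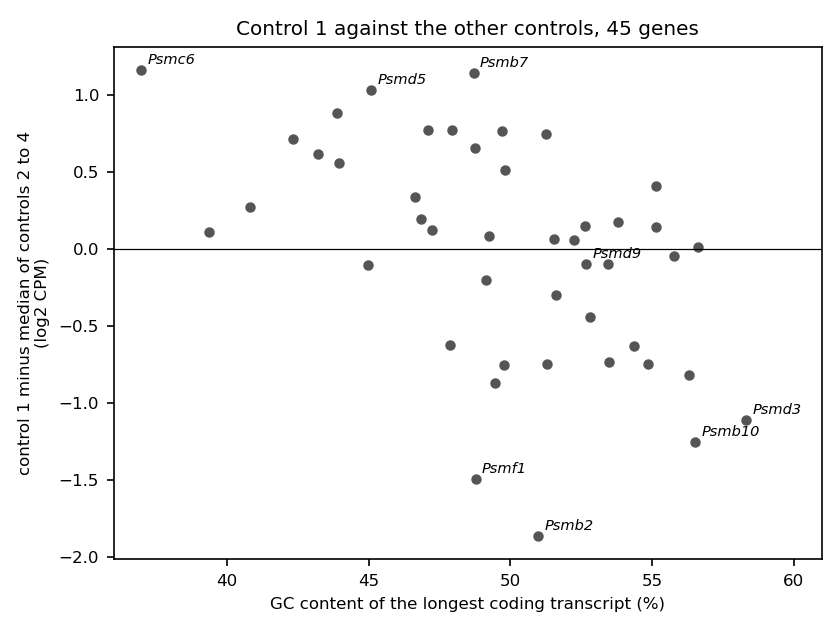
Difference between control 1 and the median of controls 2 to 4 (log2 CPM, vertical axis) against the GC content of the longest coding transcript in percent (horizontal axis), 1 point for each of the 45 genes. CPM here is scaled to library depth only, without the trimmed mean of M-values, so the position of 0 differs from that of normalised CPM. The differences run from -1.86 for Psmb2 to 1.16 for Psmc6, with AT-rich transcripts mostly above 0 and GC-rich transcripts mostly below.

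Psmd9, a chaperone that helps to assemble the ATPase ring of the regulatory particle, was the proteasome gene that rose in all 3 treatments that include glucagon. Its DNA is shown first because it was the member with the smallest adjusted p. The gene lies at chr5:123169413-123250131 on the plus strand of GRCm38 in GENCODE M21, where 1 long transcript extends the locus across Hpd on the other strand. No exon base is shared with Hpd, but 1849 exon bases (25.5%) lie opposite the noncoding Gm26745, which was not counted, and the strand setting of the counting is not given in the sources used here. The 250 bases before its RefSeq start are printed with those of Psmb6, the core subunit with the caspase-like site, and of Psmg1, a core assembly chaperone, both of which fell in hybrid livers. Capitals mark the letters TGACNNNGC, the core of the antioxidant response element to which Nfe2l1 and Nfe2l2 are known to bind. The windows are from RefSeq on GRCm38.p6, each in the direction of its own gene: chr5:123227940-123228189 on the plus strand, chr11:70525107-70525356 on the plus strand and chr16:95990961-95991210 on the minus strand.
Psmd9: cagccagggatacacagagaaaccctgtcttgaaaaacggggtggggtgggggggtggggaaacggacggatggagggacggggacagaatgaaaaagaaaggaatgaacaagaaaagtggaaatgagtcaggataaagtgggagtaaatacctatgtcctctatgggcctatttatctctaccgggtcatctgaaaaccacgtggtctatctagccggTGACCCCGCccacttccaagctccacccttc
Psmb6: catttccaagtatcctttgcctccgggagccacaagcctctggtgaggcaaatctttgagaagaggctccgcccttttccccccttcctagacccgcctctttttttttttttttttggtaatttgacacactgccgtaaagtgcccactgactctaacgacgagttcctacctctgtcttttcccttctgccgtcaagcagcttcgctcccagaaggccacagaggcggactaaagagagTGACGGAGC
Psmg1: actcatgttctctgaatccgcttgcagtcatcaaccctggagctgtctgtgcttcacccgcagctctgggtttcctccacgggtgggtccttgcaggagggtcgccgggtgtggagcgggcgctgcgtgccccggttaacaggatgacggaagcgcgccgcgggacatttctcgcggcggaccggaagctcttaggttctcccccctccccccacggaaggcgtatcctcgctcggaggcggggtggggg

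The motif begins 31 bases before the start in Psmd9 and 9 bases before it in Psmb6, and is not in the Psmg1 window. Searched on both strands, TGACNNNGC was in 5 of 41 windows of 38 proteasome genes (12.2%), those of Psmb5, Psmb6, Psmc6, Psmd12 and Psmd9. It was in 10.2% of all 32851 windows and in 11.8% of the 12181 windows of counted genes. The share of TGACNNNGC among members was thus close to that among counted genes. The cAMP response element TGACGTCA, the palindrome that CREB binds, was in 0 of the 41 windows. It was in 1.55% of all windows and in 2.43% of the windows of counted genes. Of the 5 genes that hold TGACNNNGC, Psmd9 rose and Psmb6 fell with the hybrid.

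The level of Psmd9 was 41.0, 29.9, 42.0 and 37.3 CPM in control livers 1 to 4 and 35.4, 36.3, 36.8 and 36.6 CPM in T3 livers. It was 56.1, 66.7, 55.7 and 68.8 CPM in glucagon livers, 46.1, 53.0, 48.9 and 55.8 CPM in combination livers, and 52.9, 54.1, 58.8 and 63.9 CPM in hybrid livers. All 12 livers that received glucagon in some form were above all 8 that did not, with the nearest values 46.1 and 42.0 CPM. Against control, Psmd9 rose by a log2 change of 0.72 ± 0.13 (SE) with glucagon (adjusted p = 0.000388), 0.44 ± 0.13 with the combination (adjusted p = 0.0178) and 0.61 ± 0.13 with the hybrid (adjusted p = 0.00142), by edgeR's quasi-likelihood test with Benjamini-Hochberg adjustment over all genes. With T3 alone the change was -0.05 ± 0.13 (95% interval -0.31 to 0.22). Psmd9 was also higher in hybrid than in T3 livers (0.66 ± 0.13, adjusted p = 0.00358 in edgeR). The combination exceeded T3 by 0.49 ± 0.13 with no overlap, which missed the threshold in edgeR (adjusted p = 0.0615) and passed it in DESeq2 (adjusted p = 0.0133) and, in edgeR, without control 1 (adjusted p = 0.0329). Without control 1 the changes against control were 0.77, 0.48 and 0.66 for glucagon, the combination and the hybrid (adjusted p = 0.000227, 0.0119 and 0.000906 in edgeR). The combination call against control was lost in 4 alternatives: when control 2 and glucagon 3 were left out together (adjusted p = 0.0638), when only these 2 groups were fitted (0.158), and with a correction for transcript GC without (0.0543) and with a lane block (0.0704). In a whole liver, more RNA per cell cannot be told apart from more of the cells that carry it.

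**Figure D2:**
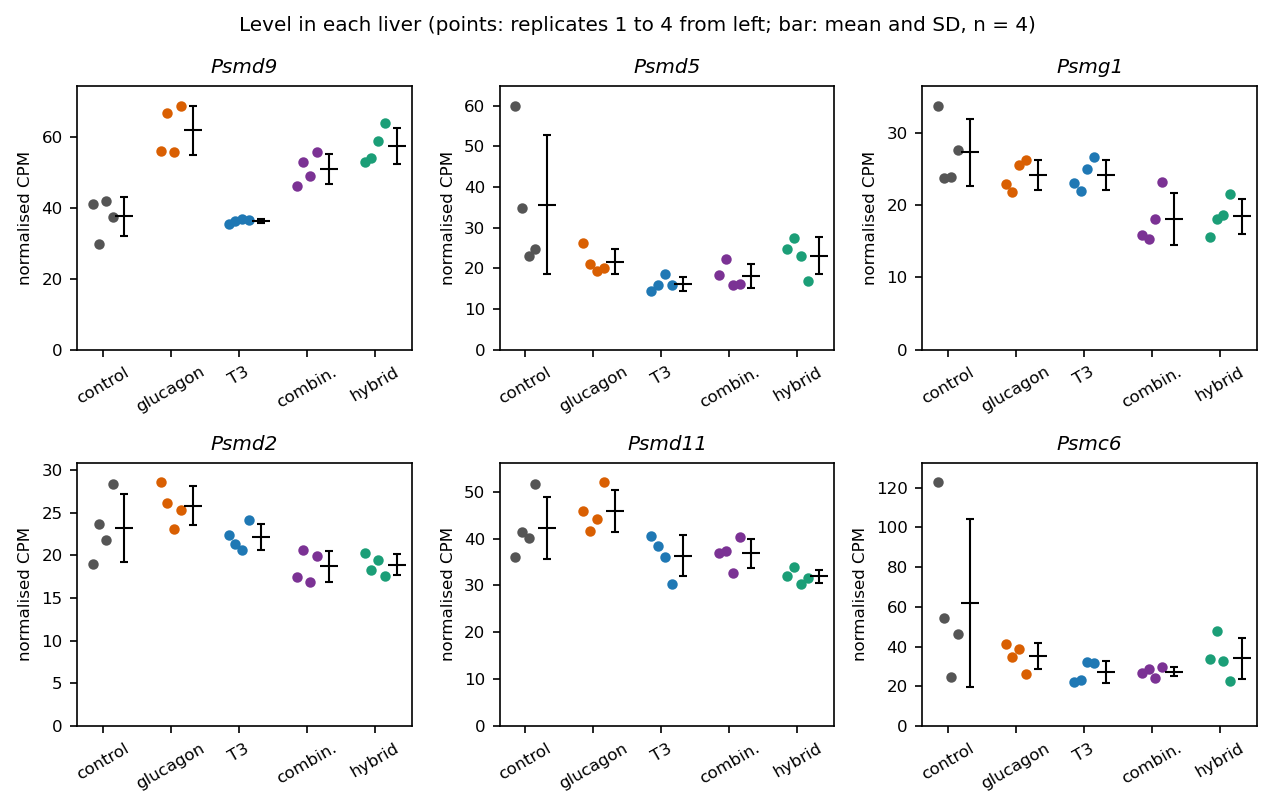
Normalised CPM (vertical axis, from 0) in each liver for 6 genes, by treatment group, with replicates 1 to 4 from left to right and the mean and SD (n = 4) beside them. The 12 Psmd9 points of the glucagon, combination and hybrid groups lie between 46.1 and 68.8 CPM, and the Psmc6 and Psmd5 points of control 1 lie far above the other controls.

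The other chaperones of the regulatory particle went the opposite way, and for them control 1 was the highest library. Psmd5 had 60.0, 34.8, 23.0 and 24.7 CPM in controls 1 to 4, 26.2, 20.95, 19.4 and 20.03 CPM with glucagon, and 14.5, 15.9, 18.5 and 16.0 CPM with T3. It had 18.4, 22.3, 15.9 and 16.1 CPM with the combination and 24.8, 27.5, 23.1 and 17.0 CPM with the hybrid. Every T3 and combination liver lay below every control, while glucagon and hybrid livers overlapped the 2 lower controls. In edgeR Psmd5 fell by 1.14 ± 0.24 on the log2 scale with T3 (adjusted p = 0.00344), by 0.97 ± 0.24 with the combination (adjusted p = 0.00674) and by 0.72 ± 0.24 with glucagon (adjusted p = 0.0339). Without control 1 the T3 change was -0.76 (adjusted p = 0.0106), the combination change -0.60 (adjusted p = 0.026) and the glucagon change -0.34 (adjusted p = 0.199).

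Psmd10, also known as gankyrin, had 21.4, 14.8, 9.11 and 10.9 CPM in controls 1 to 4, between 5.27 and 9.32 CPM with T3, between 7.26 and 9.37 CPM with glucagon, between 7.15 and 9.36 CPM with the combination and between 8.03 and 10.7 CPM with the hybrid. The lowest control lay within each treated group's range. It fell with glucagon (-0.80 ± 0.23, adjusted p = 0.0155), T3 (-0.84 ± 0.23, adjusted p = 0.017) and the combination (-0.79 ± 0.23, adjusted p = 0.0181) in edgeR. Without control 1 these changes were -0.51, -0.56 and -0.51, with adjusted p = 0.073, 0.0793 and 0.0802.

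Among the chaperones of the core, Psmg1 fell in the combination and in the hybrid. Its level was 33.7, 23.8, 23.9 and 27.6 CPM in controls, 22.9, 21.8, 25.5 and 26.3 CPM with glucagon and 23.1, 21.9, 25.0 and 26.7 CPM with T3. In combination livers it was 15.8, 15.3, 18.1 and 23.2 CPM and in hybrid livers 15.6, 18.1, 18.6 and 21.5 CPM. All 8 of those livers were below the lowest control, and all hybrid livers were also below every glucagon and T3 liver. The fall against control was 0.59 ± 0.15 on the log2 scale for the combination (adjusted p = 0.0103) and 0.57 ± 0.15 for the hybrid (adjusted p = 0.0107) in edgeR, and without control 1 the changes were -0.48 and -0.45 (adjusted p = 0.0276 and 0.0312). The combination differed from glucagon by -0.42 ± 0.15 (adjusted p = 0.0587) and the hybrid from glucagon by -0.39 ± 0.15 (adjusted p = 0.0704). Both missed the threshold in edgeR, and both passed it without control 1.

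Psmg2, the partner of Psmg1, fell with glucagon (-0.58 ± 0.19, adjusted p = 0.0375) and the combination (-0.65 ± 0.19, adjusted p = 0.0218) in edgeR. Its control values of 12.3, 10.6, 6.27 and 9.58 CPM overlapped the glucagon range of 5.64 to 7.33 CPM and the combination range of 5.57 to 7.15 CPM at control 3. Without control 1 neither call held (adjusted p = 0.116 and 0.0651). The glucagon call was lost in 17 of 29 alternatives, the lane block among them (adjusted p = 0.0563, and 0.0574 with the GC correction). Psmg3 fell with the hybrid, from 6.31, 10.2, 10.6 and 9.58 CPM in controls to 4.95, 6.90, 7.49 and 5.88 CPM. In edgeR the change was -0.54 ± 0.18 (adjusted p = 0.0379), and without control 1, here the lowest control, it was -0.68 (adjusted p = 0.0053). The call was lost in 11 of 29 alternatives, with adjusted p up to 0.122 when a single library was left out (control 2, 3 or 4, T3 2, combination 2 or 4, hybrid 1, 2 or 4). Psmg4 passed the test in none of the 4 treatments.

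The 14 core subunits were measured very unevenly, although each copy of the core needs them in equal number. Per kilobase of the longest coding transcript, mean levels ran from 0.316 CPM for Psma3 to 141 CPM for Psmb4. Psma3, Psma4, Psma5, Psmb3 and Psmb5 were under 5 CPM per kilobase, and these 5 are among the 6 core subunits with more than 20% of their transcript's 50-base stretches also present in another gene, mostly processed pseudogenes. The remaining one is Psmb7, which shares 28.1% with its neighbour Nek6. Shared stretches were 55.4% for Psma5, 55.8% for Psmb3 and 57.1% for Psmb5, and 59.3% for the activator Psme2, whose listed match is Psme2b. How the counting treated reads that match several genes is not given in the sources used here, and its part in these levels was not tested. Values of these genes are therefore uncertain.

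**Figure D3:**
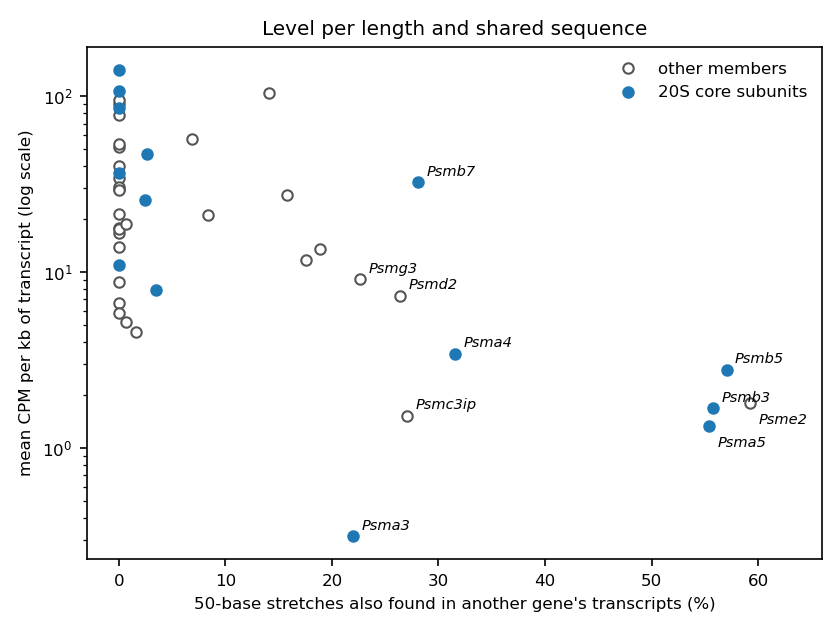
Mean CPM over 20 libraries per kilobase of longest coding transcript (vertical axis, log scale) against the percent of that transcript's 50-base stretches found in another gene's transcripts (horizontal axis), for 14 core subunits (filled) and the 31 other genes (open). Of the 6 core subunits beyond 20%, all but Psmb7 lie under 5 CPM per kilobase.

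Of the genes for the 3 proteolytic sites, Psmb6 fell in 1 treatment. It had 44.6, 32.5, 42.0 and 58.5 CPM in controls, 43.6, 34.8, 36.9 and 44.2 CPM with glucagon, and 34.5, 29.0, 32.3 and 30.2 CPM with the hybrid. Hybrid livers overlapped control 2 and no glucagon liver. The change against control was -0.50 ± 0.15 (adjusted p = 0.0223, edgeR) and, without control 1, -0.49 (adjusted p = 0.0334). The call was lost without control 4, the highest control, as also without hybrid 2, 3 or 4.

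Psmb7, which carries the trypsin-like site, had 98.5, 49.4, 31.1 and 37.7 CPM in controls and 25.3, 22.8, 31.3 and 21.7 CPM with T3, so that 1 T3 liver exceeded the lowest control. It fell by 1.10 ± 0.30 on the log2 scale with T3 (adjusted p = 0.0179, edgeR), and without control 1 the change was -0.64 (adjusted p = 0.107). Besides the sequence shared with Nek6, 11.8% of its exon bases lie opposite exons of that gene. Psmb5, which carries the chymotrypsin-like site, ranged from 1.96 to 2.78 CPM in controls, 1.73 to 2.42 with glucagon, 2.23 to 4.13 with T3, 1.75 to 3.90 with the combination and 1.89 to 3.05 with the hybrid. None of its comparisons passed the test, and all ranges overlapped.

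Among the alpha ring genes, which gate the entrance of the core, Psma6 fell with T3 (-0.59 ± 0.18, adjusted p = 0.0461) and Psma1 and Psma2 fell with the combination (-0.79 ± 0.24, adjusted p = 0.0258, and -0.69 ± 0.21, adjusted p = 0.0216) in edgeR. Psma1 had 27.3, 17.5, 9.60 and 15.6 CPM in controls and 9.89, 10.4, 9.53 and 10.7 CPM with the combination, which overlap at control 3. Psmb3 of the beta ring fell with the combination (-1.12 ± 0.37, adjusted p = 0.0375, edgeR), at 0.319 to 1.36 CPM against 1.45 to 2.64 CPM. None of the 4 calls held without control 1.

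In the regulatory particle, most of the falls against control were with T3. The ATPase genes Psmc6 and Psmc2 fell with T3 (-1.18 ± 0.33, adjusted p = 0.0186, and -0.82, adjusted p = 0.013) and with the combination (-1.18 ± 0.33, adjusted p = 0.0147, and -0.67, adjusted p = 0.0307) in edgeR. Psmc6 had 22.2, 23.2, 32.3 and 31.96 CPM with T3 and 26.9, 28.6, 24.5 and 29.7 CPM with the combination, and control 3, at 24.9 CPM, lay within both ranges. Psmd14, the deubiquitinase of the lid, fell with T3 (-0.94 ± 0.30, adjusted p = 0.0364) from 14.8, 9.66, 4.61 and 7.99 CPM to 3.80, 4.98, 7.08 and 3.52 CPM, with overlap at control 3. The lid subunits Psmd6 (-0.78, adjusted p = 0.0166) and Psmd7 (-0.70, adjusted p = 0.0377) and the activator Psme4 (-0.75, adjusted p = 0.0207) also fell with T3 in edgeR. None of these calls held without control 1.

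Psmd2 and Psmd11 differed between treatments in comparisons that do not use the control means. The spread behind these tests was still estimated over all libraries, controls included. Psmd2 encodes a scaffold of the base that receives ubiquitin-binding shuttle proteins. It had 28.6, 26.2, 23.1 and 25.4 CPM with glucagon, 17.5, 20.6, 16.8 and 19.95 CPM with the combination and 20.3, 18.3, 19.5 and 17.6 CPM with the hybrid. Every glucagon liver was above every combination and hybrid liver, while controls ran from 18.9 to 28.4 CPM across both ranges. Psmd2 was lower in the combination than in glucagon livers (-0.46 ± 0.13, adjusted p = 0.0138) and lower in hybrid than in glucagon livers (-0.45 ± 0.13, adjusted p = 0.0161) in edgeR. Without glucagon 1 the second difference just missed the threshold (adjusted p = 0.0524).

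Psmd11, a lid subunit, had 45.8, 41.5, 44.3 and 52.0 CPM with glucagon, 31.97, 33.8, 30.4 and 31.5 CPM with the hybrid and 36.1, 41.3, 40.2 and 51.7 CPM in controls. Hybrid livers were below all glucagon and all control livers. The hybrid differed from glucagon by -0.52 ± 0.13 (adjusted p = 0.0058) and from control by -0.41 ± 0.13 (adjusted p = 0.028) in edgeR. Without control 1 the second change was -0.47 (adjusted p = 0.0103). That call was lost without control 4 or without hybrid 1, 3 or 4. The longest coding transcripts of Psmd2 and Psmd11 share 26.4% and 18.9% of their 50-base stretches with other genes.

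Interferon-inducible members did not follow 1 pattern. Psmb10, the inducible counterpart of Psmb7, had 17.8, 41.8, 39.6 and 28.9 CPM in controls, 53.7, 50.9, 55.7 and 49.4 CPM with T3, 29.7, 32.3, 28.1 and 34.5 CPM with glucagon, 45.2, 38.4, 40.9 and 34.7 CPM with the combination and 53.9, 30.9, 38.3 and 33.3 CPM with the hybrid. Every T3 liver was above every control, glucagon and combination liver, and 1 hybrid liver reached the T3 range. Psmb10 rose with T3 (0.71 ± 0.21, adjusted p = 0.0248, edgeR), and without control 1, the lowest control, the change was 0.52 (adjusted p = 0.0546). Macrophage markers, 9 of 10 measured and none at 0 in any library, summed to 800 to 1017 CPM in T3 livers. The sums were 346 to 718 CPM in controls, 246 to 315 with glucagon, 599 to 732 with the combination and 634 to 866 with the hybrid. The T3 range was thus above those of the other groups except the hybrid, which it overlapped. In hybrids 1 to 4 these markers summed to 866, 843, 712 and 634 CPM, beside Psmb10 at 53.9, 30.9, 38.3 and 33.3 CPM. The 20 interferon response genes summed to 840 to 1734 CPM with T3, 659.5 to 1299.8 with the combination, 876 to 1479 with the hybrid and 313 to 544 with glucagon, so the T3 range overlapped those of the combination and the hybrid. In hybrids 1 to 4 the interferon response genes summed to 1479, 876, 1372 and 1099 CPM. In controls 1 to 4 they summed to 468, 3432, 705 and 505 CPM, beside Psmb10 at 17.8, 41.8, 39.6 and 28.9 CPM. The part of either marker set in the Psmb10 result was not tested.

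The activator subunits Psme1 and Psme2, which form the interferon-inducible cap, passed the test in none of the comparisons. Psme1 ranged from 94.1 to 145 CPM in controls, 105 to 128 with glucagon, 112 to 145 with T3, 92.7 to 126 with the combination and 96.1 to 127 with the hybrid. Psme2, whose reads are shared as described, ranged from 1.18 to 1.83 CPM in controls and 1.97 to 2.72 CPM with T3, with a change of 0.63 ± 0.28 (adjusted p = 0.125, edgeR), or 0.52 without control 1 (adjusted p = 0.267). The inhibitor Psmf1 and the nuclear activator subunit Psme3 likewise passed in none of the 4 treatments.

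**Figure D4:**
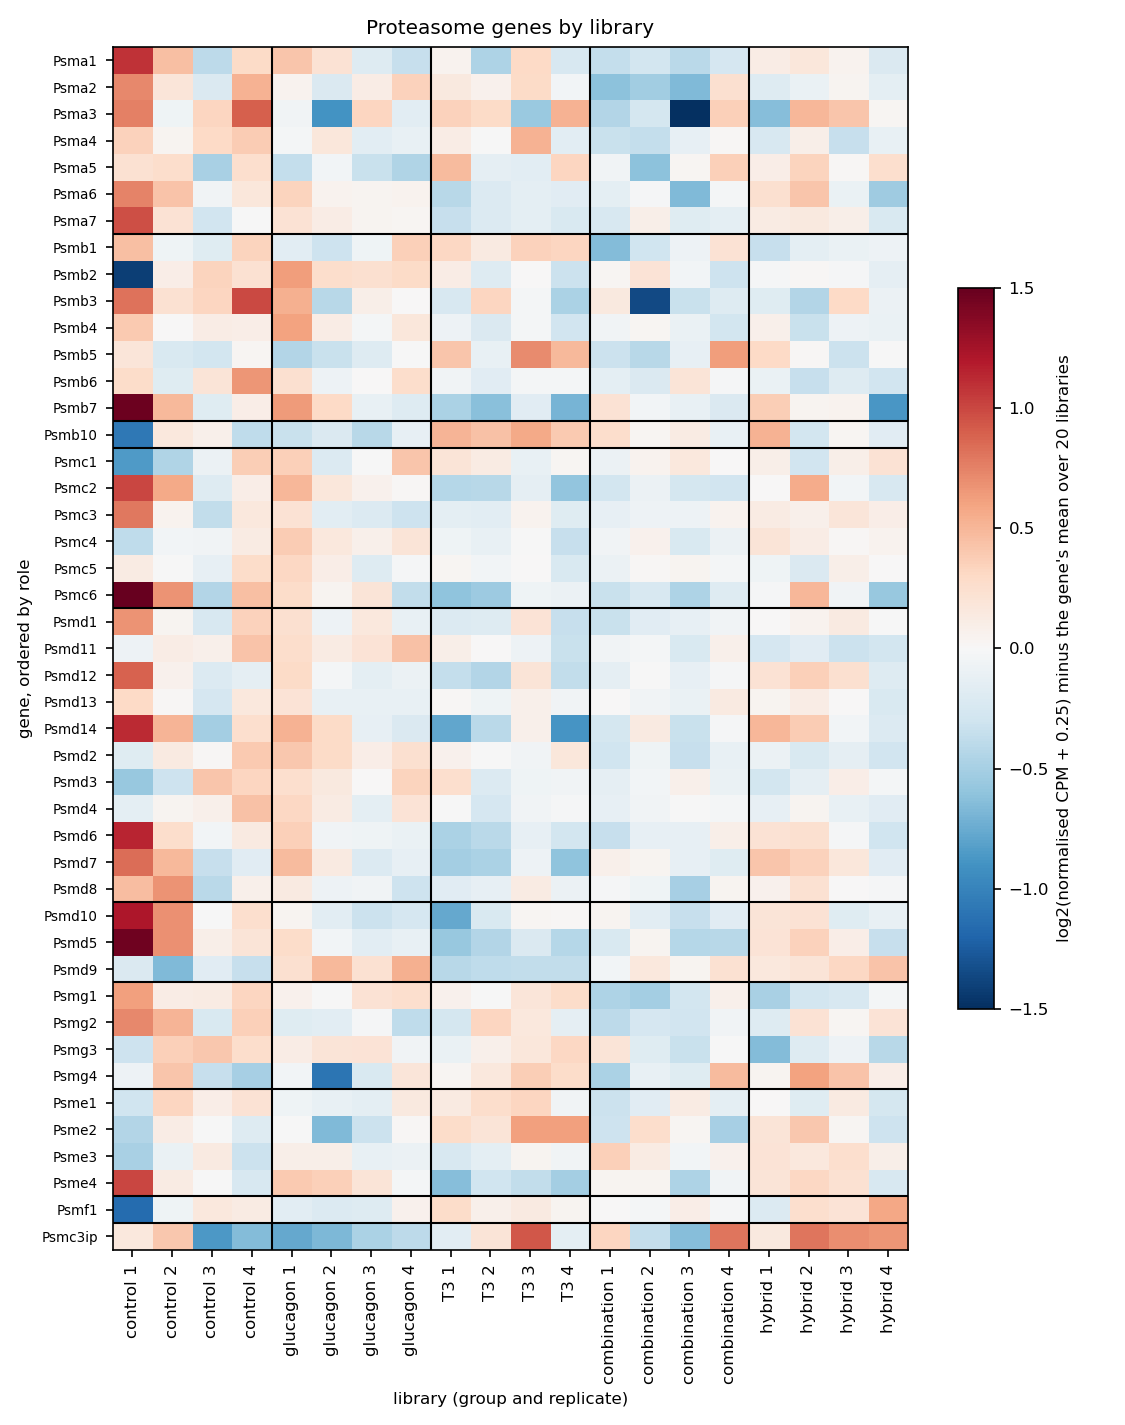
Each gene's log2(normalised CPM + 0.25) minus its mean over the 20 libraries (colour, red higher and blue lower), with genes in rows by role and libraries in columns by group. Control 1 holds the deepest reds and several of the deeper blues, while the deepest blue is Psma3 in combination 3. The Psmd9 row is red in the glucagon and hybrid columns and in combination 2, 3 and 4. It is close to its mean in combination 1 and blue in the control and T3 columns.

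With all 20 libraries, the proteasome genes were called at a smaller share than all genes with glucagon and the hybrid, and at a slightly larger share with T3 and the combination. With glucagon 4 of 45 were called (1 higher, 3 lower), or 8.89%, where 21.2% of all 12907 tested genes were called (9.23% higher, 11.9% lower). With T3 11 of 45 were called (1 higher, 10 lower), or 24.4%, where 18% of all genes were (7.31% higher, 10.6% lower). With the combination 10 of 45 were called (1 higher, 9 lower), or 22.2%, where 20.1% of all genes were (9.23% higher, 10.9% lower). With the hybrid 5 of 45 were called (1 higher, 4 lower), or 11.1%, where 24.4% of all genes were (11.2% higher, 13.2% lower). The median log2 change of the 45 against that of all genes was -0.19 against -0.09 with glucagon, -0.22 against -0.05 with T3, -0.31 against -0.07 with the combination and -0.21 against -0.05 with the hybrid. Leaving out control 1 gave medians of -0.06 against -0.04, -0.18 against -0.02, -0.24 against -0.05 and -0.11 against -0.02. These 4 comparisons share their controls and are not independent of each other.

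The counts rested on single libraries. Without control 1, 1 member was called with glucagon (Psmd9), 1 with T3 (Psmd5), 4 with the combination (Psmd9 higher, Psmd5, Psmg1 and Psmd2 lower) and 6 with the hybrid (Psmd9 higher, Psmg1, Psmg3, Psmb6, Psmd11 and Psmd2 lower). The shares of all genes called without control 1 were 20.7%, 12.3%, 17.9% and 23.1% in that order, so that the members' share then lay below that of all genes in each treatment. Without control 3, the counts were 8, 17, 18 and 12 in the same order. For glucagon the count was 2 without control 2, glucagon 2 or glucagon 4, and for T3 it was 3 without T3 1 and 6 without T3 2 or T3 4. For the combination it was 6, 5 and 4 without combination 1, 2 and 3, and for the hybrid 3 without hybrid 1 or hybrid 3 and 2 without hybrid 4. The shares of all genes called are not set beside the counts without libraries other than control 1. Those counts show only how far the calls rested on single libraries. Of the 30 calls against control, 20 were lost without control 1.

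**Figure D5:**
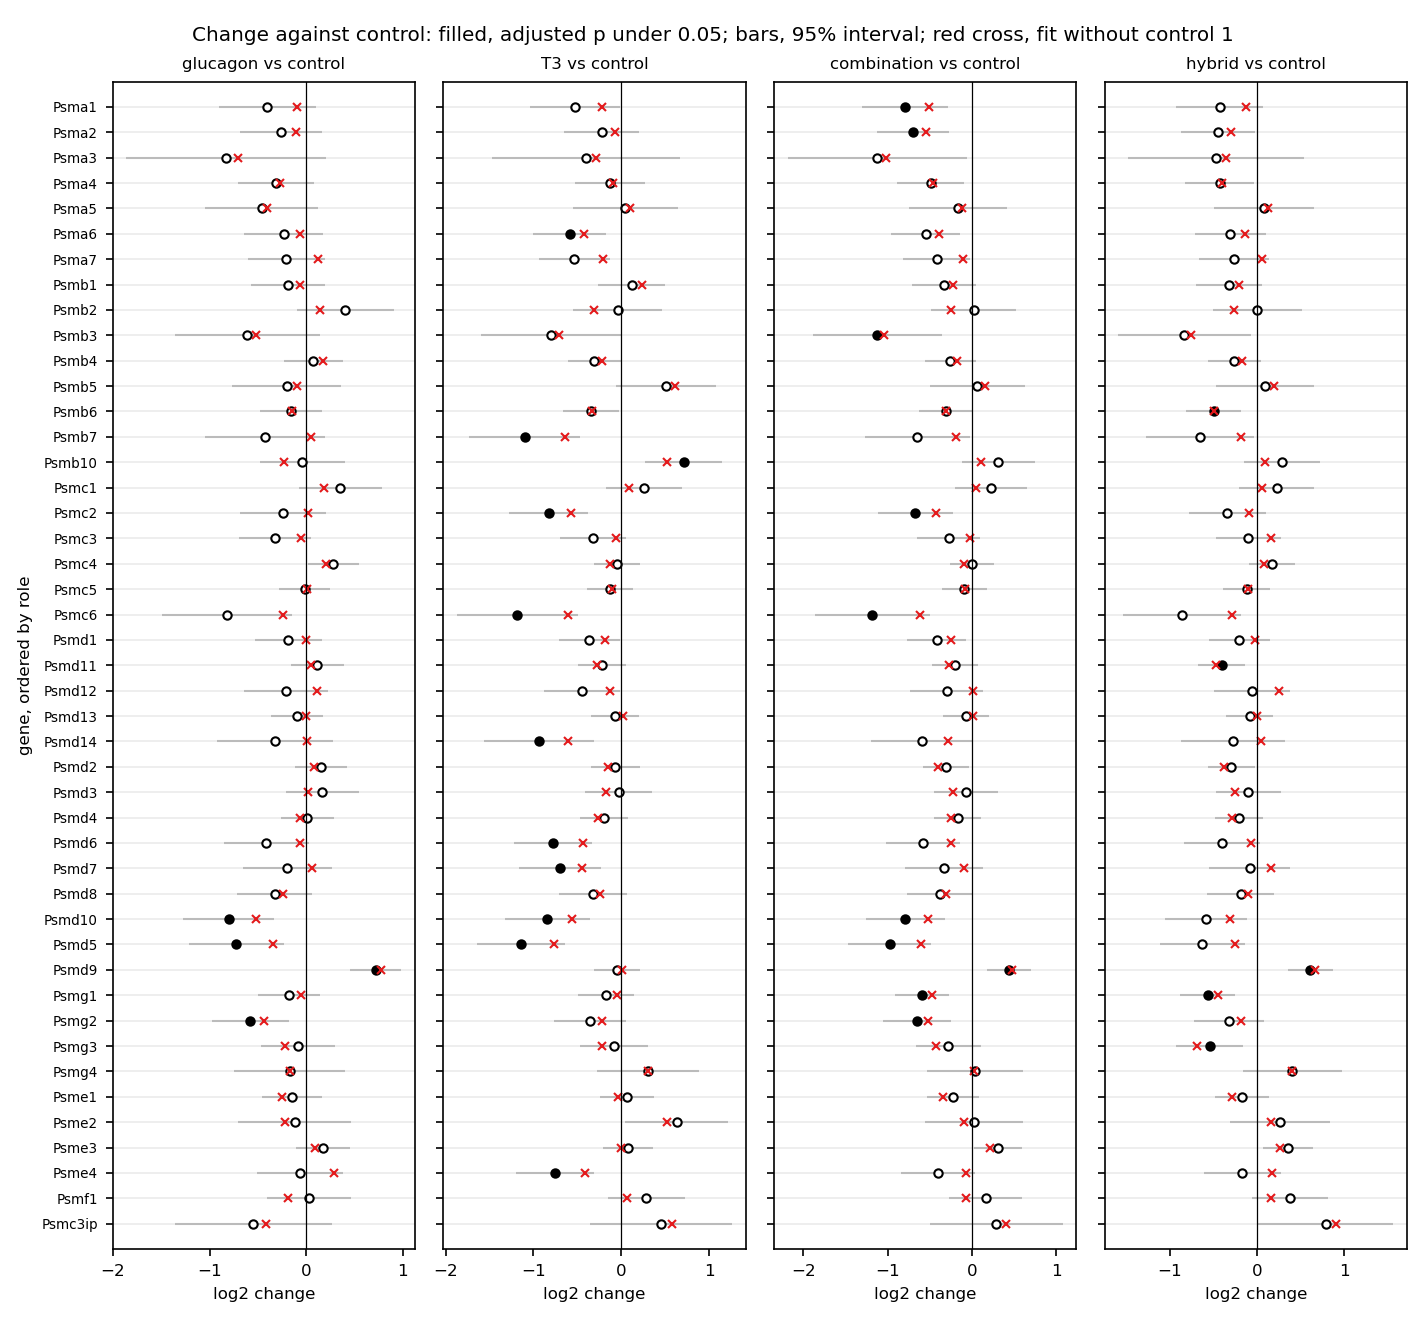
Log2 change against control (horizontal axes) for the 45 genes, ordered by role, in 4 treatments, with 95% intervals, filled points where the adjusted p is under 0.05 and red crosses for the fit without control 1. The lowest filled points, such as Psmc6 at -1.18 with T3, move toward 0 without control 1, whereas Psmd9 with glucagon is at 0.72 with it and 0.77 without it.

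For the 31 subunits of the 26S particle alone, the calls were 0 with glucagon, 7 with T3, 5 with the combination and 2 with the hybrid, all lower. These are 0%, 22.6%, 16.1% and 6.45% of the 31. Of all genes, 21.2%, 18%, 20.1% and 24.4% were called in either direction, and 11.9%, 10.6%, 10.9% and 13.2% were called lower. In glucagon livers edgeR gave 2 of the 31 an unadjusted p under 0.05, and DESeq2 also called 0. Their mean log2 CPM was 5.31, 5.00, 4.75 and 5.14 in controls 1 to 4 (mean 5.05 ± 0.24, SD, n = 4). It was 4.91 ± 0.14 with glucagon, 4.75 ± 0.09 with T3, 4.70 ± 0.10 with the combination and 4.84 ± 0.10 with the hybrid (SD, n = 4). The lowest control, control 3, lay within the range of the T3, combination and hybrid groups.

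The hybrid and the combination carry the same hormones in 1 molecule and in 2, and no proteasome gene passed the test between them. In edgeR 0 of 45 passed the threshold and 0 had an unadjusted p under 0.05, where 0.031% of all genes were called. DESeq2 also called 0 of the 45, where it called 0.219% of all genes. The differences ran from -0.26 for Psmg3 to 0.65 for Psma3, with a median of 0.17, and 33 of the 45 were above 0. Over all 12907 genes the median was 0.01 and 6627 were above 0. The differences of the 45 had a Spearman correlation of -0.521 with transcript GC, whose part in them was not tested. For Psmd9 the 95% interval of hybrid minus combination was -0.09 to 0.44 on the log2 scale, for Psmd5 -0.15 to 0.84 and for Psmg1 -0.30 to 0.35, so moderate differences in either treatment's favour lie within these intervals for some genes.

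Against the single hormones, the differences were few. The combination against glucagon gave 1 call of 45 (Psmd2, lower), where 22.5% of all genes were called (12.4% higher, 10.2% lower), and the hybrid against glucagon gave 3 (Psmd2 and Psmd11 lower, Psmc3ip higher), where 25.2% were (13.6% higher, 11.7% lower). Without control 1 these counts were 4 and 6, Psmb2 and Psmg1 being among the added genes in both. The first count was also 2 without control 2 or control 3 and 3 without combination 4. The combination against T3 gave 0 calls in edgeR, with 5 at an unadjusted p under 0.05, where 1.39% of all genes were called. DESeq2 gave 1 call (Psmd9), where it called 2.81% of all genes. Leaving out control 1 or control 2 made that count 1. The hybrid against T3 gave 1 call (Psmd9, higher), where 6.36% were called (3.69% higher, 2.67% lower), and 2 without control 1 (Psmd9 and Psme4). The shares of all genes called in these fits without a single library are not given here.

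Psmc3ip, the gene that is no proteasome gene, had 0.955, 1.03, 1.22 and 1.31 CPM with glucagon and 2.01, 3.34, 3.07 and 2.99 CPM with the hybrid. The ranges did not overlap, and the difference was 1.33 ± 0.39 (adjusted p = 0.0152, edgeR). It shares 27.1% of its 50-base stretches with the neighbouring Mlx, whose exons it overlaps, so its few reads are uncertain.

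Whether the combination departed from what the 2 single hormone changes add up to was tested as well. None of the 45 passed in edgeR or in DESeq2, 3 had an unadjusted p under 0.05, and 3.73% of all genes were called. The widest departures were those of Psmd5 (0.89 ± 0.34, adjusted p = 0.174) and Psmb7 (0.88 ± 0.43, adjusted p = 0.301) in edgeR, both with a combination value less far below control than the sum of the single hormones. The control mean enters this comparison, and control 1 was the highest control for both genes, at 60.0 CPM of Psmd5 and 98.5 CPM of Psmb7. The departures without control 1 are not given here.

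Beside the members, 34 other genes listed as partners of the pathway were tested. They were 8 further subunits and associated proteins, 7 genes listed as regulators, 13 genes of ubiquitin and its handling and 6 ubiquitin ligases known from muscle atrophy. The regulator list held Nfe2l1, Nfe2l2, Ddi2, Ngly1, Syvn1, Sel1l and Tbp, the last a general transcription factor gene. Of the 34, 2 rose and 2 fell against control with glucagon, 0 and 5 with T3, 1 and 4 with the combination, and 2 and 4 with the hybrid. These are 11.8%, 14.7%, 14.7% and 17.6% of the 34, where 21.2%, 18%, 20.1% and 24.4% of all genes were called. Without control 1 the partners gave 2 rises and 2 falls, 0 and 4, 1 and 3, and 2 and 4, and DESeq2 with all libraries gave 4 and 2, 0 and 8, 1 and 6, and 2 and 4. Fits of the compared groups alone gave 0 and 2, 0 and 0, 0 and 0, and 0 and 2. The shares of all genes without control 1 are those given above, and those of the compared groups alone are given below. Those of DESeq2 are not given for these comparisons. Nfe2l2, the regulator of the antioxidant response that shares its binding motif with Nfe2l1, fell in all 4 treatments. It had 115, 158, 99.7 and 121 CPM in controls, 64.5 to 77.9 with glucagon, 75.4 to 96.3 with T3, 70.4 to 91.1 with the combination and 65.3 to 79.9 with the hybrid. All 16 treated livers were below the lowest control, and the changes were -0.78 ± 0.14, -0.51 ± 0.14, -0.69 ± 0.14 and -0.78 ± 0.14 in that order, with adjusted p = 0.000698, 0.0203, 0.00208 and 0.000591 in edgeR. Leaving out control 1 gave changes of -0.80, -0.54, -0.73 and -0.81 (adjusted p = 0.000759, 0.0242, 0.00206 and 0.000632). The T3 call was kept in 22 of 29 alternatives. It was lost without control 2, the highest control (adjusted p = 0.0703 in edgeR), and without T3 1 or T3 4. It was also lost without control 2 and glucagon 3 together, and with the GC correction, without and with the lane block. The T3 and combination calls were both lost in fits of the compared groups alone.

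Nfe2l1 rose with the combination (0.62 ± 0.17, adjusted p = 0.014, edgeR), from 142, 138, 231 and 161 CPM to 272, 291, 226 and 244 CPM, which overlap at control 3. The change was 0.55 without control 1 (adjusted p = 0.036). Fbxo21, a ubiquitin ligase subunit, fell with glucagon (-1.69 ± 0.34, adjusted p = 0.00145), the combination (-1.08 ± 0.34, adjusted p = 0.0281) and the hybrid (-1.73 ± 0.34, adjusted p = 0.00102) in edgeR. Its controls had 65.995, 40.6, 117 and 63.6 CPM, glucagon livers 16.7 to 27.2 CPM and hybrid livers 11.7 to 28.8 CPM, with no overlap between control and either. Combination livers had 45.1, 18.03, 21.7 and 50.8 CPM, and 2 of them exceeded control 2. Without control 1 the changes were -1.72, -1.12 and -1.77 (adjusted p = 0.00233, 0.0379 and 0.00176), and the combination call was lost without control 3, combination 2 or combination 3 (adjusted p = 0.0865 to 0.0916).

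Txnl1, a thioredoxin bound to the regulatory particle, and Uchl5, one of its deubiquitinases, fell with T3 (-0.85 ± 0.19, adjusted p = 0.00586, and -0.82 ± 0.26, adjusted p = 0.0342, edgeR). Control 1 was the highest control for both, at 87.8 CPM of Txnl1 beside 52.9, 46.9 and 46.98, and at 8.34 CPM of Uchl5 beside 6.23, 4.21 and 4.15. Without it the Txnl1 change was -0.58 (adjusted p = 0.0216) and the Uchl5 change -0.58 (adjusted p = 0.143), so the second call did not hold. Usp14, the other reversible deubiquitinase of the particle, was lower in the combination (-0.64 ± 0.18, adjusted p = 0.0156) and in the hybrid (-0.59 ± 0.18, adjusted p = 0.0217) than in glucagon livers, as was the ligase Syvn1 (-0.94 ± 0.28, adjusted p = 0.0174, and -1.02 ± 0.28, adjusted p = 0.0103) in edgeR. The Usp14 call was lost for the combination without combination 3 (adjusted p = 0.0519 in edgeR), and with the GC correction, without and with the lane block. For the hybrid it was lost without glucagon 1, hybrid 1, hybrid 3 or hybrid 4 (adjusted p = 0.0528 to 0.0721 in edgeR). In edgeR 0 of the 34 passed between hybrid and combination, with 1 at an unadjusted p under 0.05, where 0.031% of all genes were called. Between combination and T3 0 passed, with 3 at an unadjusted p under 0.05, where 1.39% of all genes were called. DESeq2 also called 0 in both comparisons, and its shares of all genes are those given above.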

How the data were processed

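Liver RNA libraries of 20 mice were analysed, 4 in each of 5 groups. Raw counts for each gene symbol were deposited. The authors made them with HTSeq against mm10, per the submitters' processing notes. The aligner, the annotation, the strand setting and the handling of reads with several matches were not given in the sources used here. Kept genes (filterByExpr, minimum count 10 and minimum total 15) numbered 12907. Counts were normalised by TMM and fitted with edgeR 4.0.16 in R 4.3.3 by quasi-likelihood over all 5 groups (15 residual degrees of freedom), with Benjamini-Hochberg adjustment over all genes within each of 10 contrasts and calls under 0.05. Errors are SE for log2 changes and SD for levels. The fits were tested on simulated data.

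Members and lists were chosen with earlier results of these data known. Named with full values were Psmb5, Psmb6, Psmb7, Psmb10, Psme1, Psme2 and, per contrast, up to 4 called members with the largest rise and 4 with the largest fall. Other genes named from the lists were chosen after their values were seen. Lists were 26S subunits by role, pathway partners, and hepatocyte, macrophage, lymphocyte, skeletal muscle and interferon response markers. Lymphocyte markers, 10 of 10 measured, summed to 6.53 to 36.3 CPM. Positions, transcript GC and shared 50-base stretches are from GENCODE M21 on GRCm38, matched by symbol, and promoter windows from RefSeq.

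Replicate numbers mark lanes 1 to 4 in the 4 groups other than T3, per the labels. Same-numbered libraries had residual correlations of -0.318 to 0.462 over 24 pairs. Alternatives were RLE factors, no filter, DESeq2 1.42.0, fits of the compared groups alone, a lane block (lanes 1 to 4, with no lane term for T3), control 2 and glucagon 3 left out together, each library left out in turn and, chosen after seeing the data, GC offsets (per-library trends on transcript GC). The partners' values under these alternatives were also added after seeing the data.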

Additional observations from a re-analysis of the deposited data

Results flagged for a closer look

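Of 95 sets of 4 livers looked at, 19 genes in 5 groups, 1 held a library far from the rest: Psmb6 had 32.64 CPM in T3 2 against 35.56 to 35.98 CPM in the other T3 livers. Chance gives about 1 in 20 such sets. None of the comparisons of T3 with another group passed the test for Psmb6.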

How the results depend on the processing

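Of 35 calls, 6 held in all 29 alternatives: Psmd9 with glucagon, with the hybrid and in hybrid against T3, Psmd2 in combination against glucagon, and Psmd11 and Psmc3ip in hybrid against glucagon. Psmd5 with T3 and the combination, and Psmg1 with the combination and the hybrid, were lost only in fits of the compared groups alone. No named call reversed.

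Counts of members called are given in the order glucagon, T3, combination and hybrid against control, then combination against glucagon, combination against T3, hybrid against glucagon and hybrid against T3. The main counts were 4, 11, 10, 5, 1, 0, 3 and 1. Fits of the compared groups alone gave 1, 0, 0, 1, 6, 1, 6 and 4, where 7.83%, 4.19%, 7.43%, 9.61%, 34%, 4.37%, 33.2% and 13% of all genes were called. DESeq2 gave 4, 12, 12, 9, 3, 1, 5 and 1, and RLE factors 2 for combination against glucagon and 4 for hybrid against glucagon (Psmg1 added). The replicate block by lane, which pairs libraries of lanes 1 to 4, gave 3, 11, 11, 8, 2, 0, 3 and 2. The T3 libraries, all in lane 5, carried no lane term, so no lane effect was taken out of the T3 group and the counts against or for T3 (11, 0 and 2) are not paired by lane. GC offsets gave 4, 10, 11, 9, 3, 1, 5 and 1, with the replicate block 3, 12, 13, 11, 6, 2, 6 and 3, and without control 1 2, 3, 5, 6, 9, 1, 8 and 3. Without control 2 and glucagon 3 they were 1, 9, 10, 4, 1, 1, 3 and 1. The 26S subunits alone gave 0, 7, 5, 2, 1, 0, 2 and 0. With each library left out the ranges were 1 to 8, 1 to 17, 4 to 18, 2 to 12, 1 to 4, 0 to 1, 2 to 6 and 1 to 2. Hybrid against combination and additivity gave 0 throughout. Shares of all genes are given here only for the fits of the compared groups alone. The other alternative counts show how calls depend on the processing, not how the members compare with all genes. The cause of these shifts was not tested.

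Over the 45 genes, log2 changes and transcript GC had Spearman correlations of 0.494, 0.577, 0.632 and 0.425 against control, and 0.102, 0.435, 0.434 and 0.12 without control 1. With 4 mice a group and a biological coefficient of variation of 27.8%, small changes lie below what these libraries can show.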
